A study of Mus musculus with 12 samples.

Results

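The genes described here encode proteins of the mitochondrial ribosome. They were chosen by symbol alone: every gene of the array annotation with a single symbol that begins Mrpl or Mrps. A number and, at most, the letter a, b or c had to follow. Mrpl stands for the large and Mrps for the small subunit, but a symbol does not always give the subunit of its protein. The rule found 76 genes, 47 Mrpl and 29 Mrps, among 18193 genes with a named probe set. Where several probe sets named a gene, the one with the highest mean log2 value over all 12 arrays stood for it. Mrpl30 and Mrpl53 were met only on probe sets that carry a second symbol, so these 2 genes were left out.

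Mitochondria keep a small genome whose messenger RNAs encode core subunits of the respiratory chain and ATP synthase, and a dedicated ribosome inside the organelle translates them. Its RNA parts come from the mitochondrial genome, whereas all its proteins are made from nuclear genes and imported. Some of these proteins descend from bacterial ribosomal proteins and carry their numbers, while others were added in the mitochondrial lineage and have higher numbers. Production of ribosomes is in general tied to the growth state of a cell.

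The 12 arrays held RNA of NIH3T3 cells, an established mouse fibroblast line, infected with virus that carried 1 of 4 vectors: an empty control vector, Yap, Tead2-VP16 or Tead2-EnR. Tead2 binds DNA at the end of the Hippo pathway, and Yap is its coactivator. Tead2-VP16 carries an activation domain taken from a virus and Tead2-EnR the repressor domain of Engrailed, so both were engineered fusions. There were 6 groups of 2 arrays: control and Tead2-EnR cells at 30% confluency (sparse below), control and Tead2-VP16 cells when completely confluent, and Tead2-VP16 and Yap cells that still proliferated a little above the normal confluent state (high density below). Every group, the controls included, had been infected with virus. No control cells were grown to the high density of the Yap and Tead2-VP16 cells, so in comparisons of these groups with control the expressed protein and the density cannot be told apart. Nothing in the labels shows that a group's 2 arrays were grown as separate cultures, and the p-values then measure only the spread between these arrays, which may be technical.

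Deposited intensities reached from 3.77 to 25980, and array medians lay between 51.9 and 53.7. All 8 fibroblast markers checked were above the median gene on every array. The 5 endothelial and the 2 measured adipocyte markers were below it on every array. Among 5 macrophage and blood markers Csf1r passed it on some arrays (6.86 to 7.17 log2). Among 6 epithelial markers Epcam (6.98 to 8.40) and Krt14 (9.15 to 11.37) lay above it, as did Des (7.02 to 7.49) among 4 muscle markers. The Tead2 probe set read 9.83 ± 0.018 in Tead2-EnR and 9.63 ± 0.011 in sparse control cells, but 9.76 ± 0.002 in confluent and 9.32 ± 0.124 in high-density Tead2-VP16 cells, against 9.88 ± 0.019 in confluent control cells (log2, mean ± SD, n = 2). High-density Tead2-VP16 cells were lower than confluent control (limma's adjusted p = 3.32e-04) and sparse control (0.00526). Of 2 Yap1 probe sets, the brighter read 9.66 ± 0.047 in Yap, 9.96 ± 0.019 in confluent and 9.81 ± 0.025 in sparse control cells, and the dimmer 8.76 ± 0.008, 8.87 ± 0.096 and 8.94 ± 0.024. Whether these probe sets lie inside the vector inserts is not given in the sources used here, so they do not settle the labels, and the groups are named as labelled. Some RNA measures moved with density: the transferrin receptor controls differed between their 3′ and 5′ probe sets by 0.98 ± 0.052 at low density and 1.30 ± 0.193 at complete confluency in control cells, and those of actin by 0.08 ± 0.007 and 0.23 ± 0.017. The poly-A spike-in controls averaged 8.09 ± 0.107 and 8.46 ± 0.105 in the same groups. Other measures changed little there. The glyceraldehyde dehydrogenase controls differed between 3′ and 5′ by −0.23 ± 0.006 and −0.28 ± 0.031, and the hybridization controls averaged 10.58 ± 0.022 and 10.60 ± 0.194. The part of these measures in the results below was not tested.

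The first question was how the mitochondrial ribosomal proteins differed between sparse and confluent control cells. Of the 76 genes, 63 were lower at complete confluency, 3 were higher and 10 were not called, with a median difference of −0.54 on the log2 scale (limma's moderated test, adjusted p below 0.05 over all 18193 genes). Over all genes tested, 22.8% were lower and 26.1% higher, with a median of −0.01. Among the 9096 genes above the median level, where all 76 mitochondrial ribosomal genes lie, 35.5% were lower and 41.5% higher. The 76 genes thus fell more often than either background, at 82.9%. Arrays carry a fixed amount of labelled RNA, so every value is relative to the other messages of the same cells, and in bulk RNA fewer cells with a message cannot be told apart from less of it per cell.

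Mrpl12, which forms the flexible stalk of the large subunit that recruits translation factors, fell the most. Its log2 values were 11.42 and 11.47 in sparse control cells and 9.88 and 9.84 in confluent ones. All other groups lay between, from 9.95 in a confluent Tead2-VP16 array to 10.62 in a Tead2-EnR array, and the sparse controls overlapped with no other group. The difference was −1.59 (SE 0.0573), 3.0-fold lower at confluency, with limma's adjusted p = 1.03e-08. Mrpl10, the protein that anchors this stalk to the ribosome, moved the other way. It read 9.69 and 9.65 in sparse and 9.93 and 10.01 in confluent control cells, a rise of 0.30 with limma's adjusted p = 0.00106. The sparse controls were its lowest arrays, and the confluent controls overlapped only with the confluent Tead2-VP16 arrays, at 9.93 and 9.86. Mrpl11, at the base of the stalk and named here after its values were seen, fell by 0.77.

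Other large-subunit proteins numbered after bacterial counterparts were among the steepest falls. Mrpl19 read 10.22 and 10.09 in sparse and 8.69 and 8.81 in confluent control cells, and was 2.64-fold lower (limma's adjusted p = 5.87e-08). Mrpl18 read 10.51 on both sparse arrays and 9.37 and 9.31 on the confluent ones, a difference of −1.17. For both genes the sparse controls were the highest arrays of the series and overlapped with no other group. Mrpl46, a protein of the higher-numbered class, read 9.47 and 9.50 against 8.11 and 8.29 (difference −1.29, limma's adjusted p = 1.06e-07). Mrpl24, a counterpart of a bacterial protein, was the remaining large-subunit gene with a rise: 8.15 and 8.19 in sparse and 8.37 on both confluent arrays, a difference of 0.20 (limma's adjusted p = 0.0112). Without the first sparse array it was not called (limma's adjusted p = 0.0602). Its Tead2-EnR arrays, at 8.16 and 8.15, were as low as the sparse controls, and the confluent Tead2-VP16 arrays, at 8.62 and 8.53, were the highest. In all, 38 of 47 Mrpl genes were lower and 2 higher, with a median of −0.61.

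Of the 29 genes with an Mrps symbol 25 were lower and 1 higher, with a median of −0.41. Mrps22, a mitochondria-specific protein whose mutation causes a human disorder of oxidative phosphorylation, read 10.06 and 10.00 in sparse and 8.70 and 8.80 in confluent control cells. Its difference was −1.28 (limma's adjusted p = 7.06e-08), and the sparse arrays stood above all others. Mrps7, a protein of the small-subunit head, read 10.85 and 10.87 against 9.66 and 9.71 (difference −1.17, limma's adjusted p = 6.37e-08), again with no overlap between the sparse controls and any other group. The Mrps18 paralogues, of which Mrps18a sits in the large subunit despite its name, all fell: Mrps18a by 0.45, Mrps18b by 0.89 and Mrps18c by 0.49. Genes numbered after bacterial proteins and later additions fell to a similar degree, with 35 of 43 lower and a median of −0.55 in the first class and 28 of 33 lower and a median of −0.54 in the second. The 3 genes that rose were all of the first class.

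**Figure D1:**
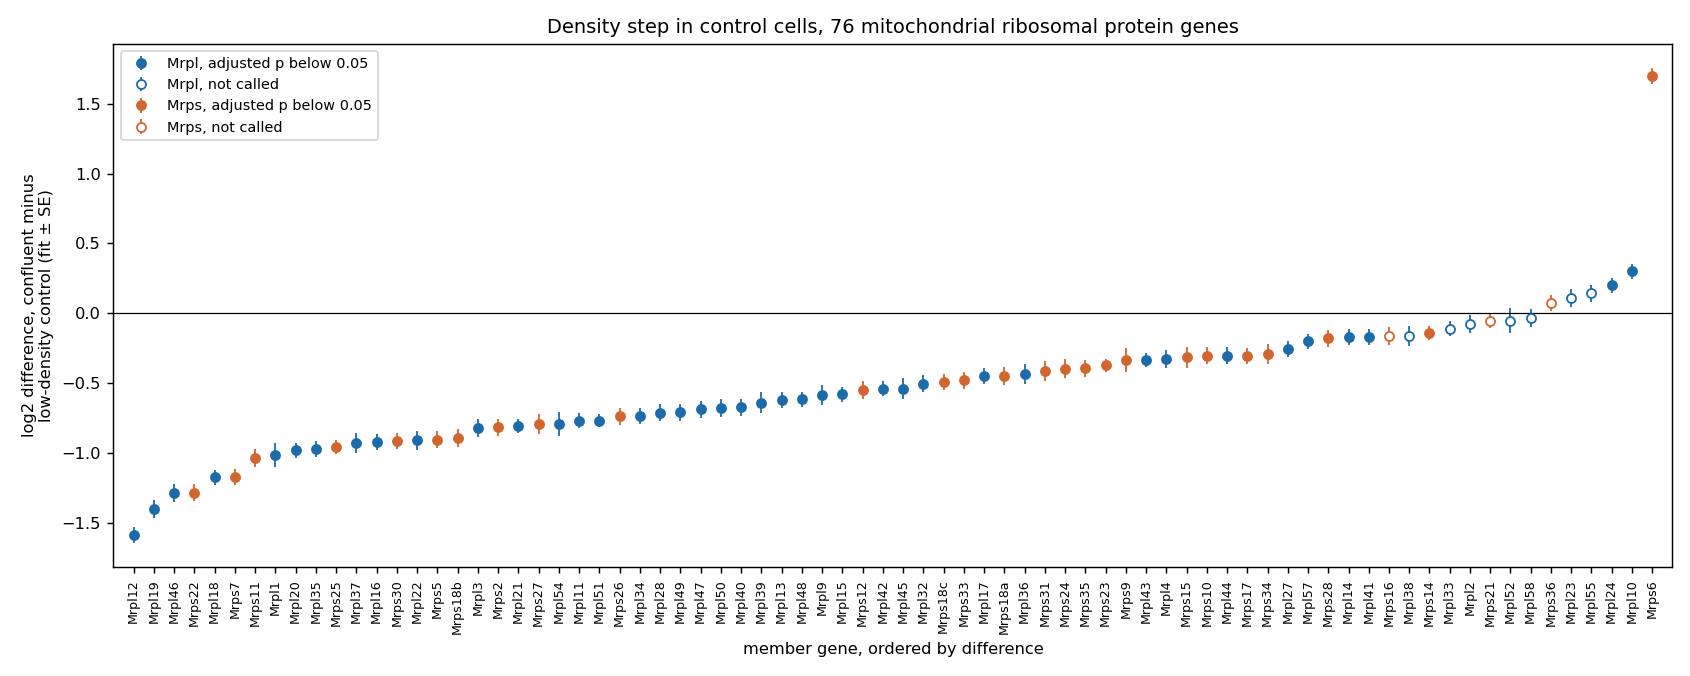
The log2 difference of each of the 76 genes between confluent and sparse control cells is plotted in order, with bars for the standard error of the fit and colours for Mrpl and Mrps symbols. Most points lie below 0, Mrpl12 at the bottom with −1.59, and Mrps6 stands alone at 1.70.

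Mrps6, a small-subunit protein with a bacterial counterpart, was the exception in size as well as direction. Its probe set 1447585_s_at read 11.04 and 10.94 in sparse and 12.66 and 12.72 in confluent control cells. The rise of 1.70 (SE 0.0583), 3.24-fold, had limma's adjusted p = 7.51e-09 and left the confluent controls above every other array. A second probe set, 1424440_at, rose by 1.43 (limma's adjusted p = 2.53e-08 among single-symbol probe sets), from 10.53 and 10.55 to 11.97 and 11.95.

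Mrps6 shares its locus with Slc5a3, which encodes the sodium/myo-inositol cotransporter that takes up this osmolyte. In RefSeq on GRCm38.p6, Mrps6 spans chr16:92058336-92112227 and Slc5a3 spans chr16:92058322-92087473, with starts 14 bases apart on the same strand. The Slc5a3 probe set 1435484_at read 9.34 on both sparse arrays and 12.43 and 12.25 on the confluent ones. Slc5a3 rose by 3.0 with limma's adjusted p = 8.35e-10. In Tead2-EnR cells Slc5a3 read 11.48 and 11.39, and Mrps6 12.26 and 12.34. In Yap and high-density Tead2-VP16 cells Mrps6 was near the sparse controls, at 11.15 to 11.20, whereas Slc5a3 lay well above its own sparse level, at 10.48 to 10.67. On these probe sets both genes were thus highest in confluent control, next in Tead2-EnR or confluent Tead2-VP16 cells, and lowest in sparse control cells, although on 1424440_at the sparse, Yap and high-density Tead2-VP16 arrays of Mrps6 overlapped. Whether transcripts of one gene contributed to the other's probe sets was not tested.

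**Figure D2:**
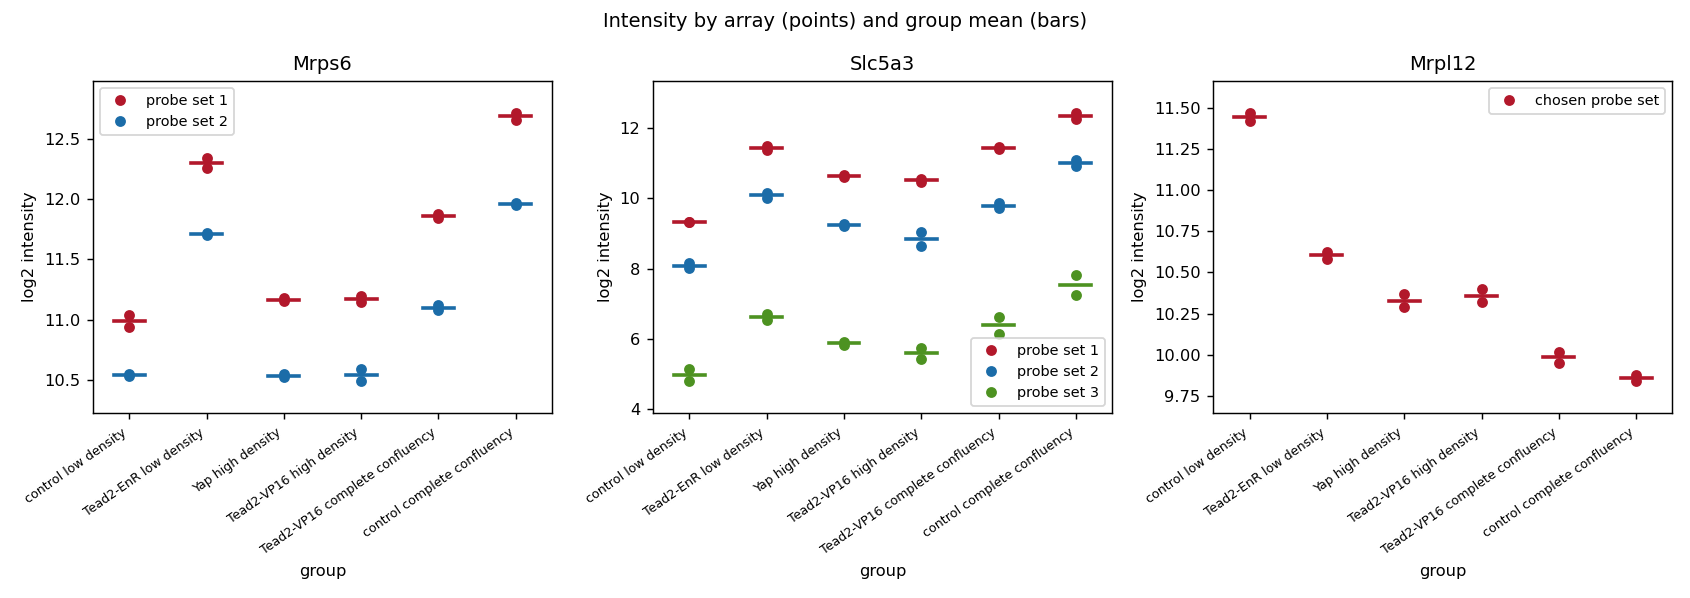
Log2 intensity by group is plotted for the probe sets of Mrps6, Slc5a3 and Mrpl12 in separate panels, with a point for each array and a bar for the group mean. Every Mrps6 and Slc5a3 probe set is highest in confluent control cells (12.66 and 12.72 on 1447585_s_at of Mrps6), where Mrpl12 is lowest (9.88 and 9.84).

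For genes at both ends of the density response, the stretches just before the start in the promoter entry are shown for comparison. They belong to the 4 steepest falls with a RefSeq promoter entry in which no other RefSeq gene overlaps the 150 bases before the start, Mrpl12 (chr11:120484487-120484636, plus strand), Mrps22 (chr9:98601680-98601829, minus strand), Mrpl18 (chr17:12916092-12916241, minus strand) and Mrpl1 (chr5:96209965-96210114, plus strand), and to the 3 genes that rose, Mrps6 (chr16:92058186-92058321, plus strand), Mrpl10 (chr11:97041432-97041581, plus strand) and Mrpl24 (chr3:87919394-87919543, plus strand). Each is from RefSeq on GRCm38.p6, written 5′ to 3′ on the strand of the gene, and capitals mark matches on either strand to the motifs CCGGAAG (ETS factors and GABP) and CATTCC (TEAD factors) and to the other motifs searched below. The Mrps6 stretch is cut at the start of Slc5a3. The stretches of Mrpl1, Mrpl18 and Mrpl24 lie inside the RefSeq span of their own gene, which begins further upstream. That span starts at 96209498 for Mrpl1 and 87918131 for Mrpl24, and ends at 12917787 for Mrpl18 on the minus strand. These stretches thus precede an inner start and not the outer start of the gene.
Mrpl12: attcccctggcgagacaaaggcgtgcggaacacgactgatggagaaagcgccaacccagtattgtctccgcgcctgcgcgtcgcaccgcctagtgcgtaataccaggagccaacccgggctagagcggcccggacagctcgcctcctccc
Mrps22: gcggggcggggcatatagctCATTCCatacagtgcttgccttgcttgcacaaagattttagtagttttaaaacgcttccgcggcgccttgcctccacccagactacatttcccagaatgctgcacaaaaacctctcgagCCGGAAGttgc
Mrpl18: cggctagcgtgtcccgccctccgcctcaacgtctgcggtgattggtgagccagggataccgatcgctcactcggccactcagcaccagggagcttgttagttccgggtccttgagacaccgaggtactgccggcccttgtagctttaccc
Mrpl1: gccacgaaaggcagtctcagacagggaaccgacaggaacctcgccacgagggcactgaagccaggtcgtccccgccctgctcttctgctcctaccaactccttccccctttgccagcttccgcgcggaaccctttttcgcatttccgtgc
Mrps6: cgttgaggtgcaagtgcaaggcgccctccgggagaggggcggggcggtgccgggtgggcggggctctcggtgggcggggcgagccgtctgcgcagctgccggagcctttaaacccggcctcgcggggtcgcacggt
Mrpl10: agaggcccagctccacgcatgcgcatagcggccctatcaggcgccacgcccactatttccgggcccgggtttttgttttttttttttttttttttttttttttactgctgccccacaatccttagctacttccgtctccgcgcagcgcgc
Mrpl24: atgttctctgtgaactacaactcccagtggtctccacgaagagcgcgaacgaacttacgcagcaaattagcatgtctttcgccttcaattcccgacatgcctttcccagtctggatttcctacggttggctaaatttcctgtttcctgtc
Among these 7 stretches only that of Mrps22 holds marked letters, a TEAD and an ETS match. The Mrps6 stretch is the richest in G and C, at 75.7%, and that of Mrpl24 the poorest, at 48.0%. The stretches of the genes that fell have between 52.0% and 64.7%.

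Promoter entries that reach from 250 bases before to 50 bases after a start were given for 67 of the 76 genes, in 73 windows. Mrpl13, Mrpl15, Mrpl19, Mrpl38, Mrpl4, Mrpl54, Mrps28, Mrps34 and Mrps35 were not matched. Each motif was searched on both strands. The ETS and GABP motif CCGGAAG was in 34.2% of these windows, in 8.86% of all 32851 windows and in 19.2% of windows of genes above the median level. The YY1 motif GCCATNTT was in 28.8%, against 6.05% and 9.23%. The palindromic NRF1 motif was in 4.11%, against 0.971% and 2.28%. The E-box CACGTG, a site that Myc can bind, was in 9.59%, against 7.15% and 10.6%. TEAD's CATTCC was in 11%, against 14.7% and 11.7%, in windows of Mrpl1, Mrpl22, Mrpl44, Mrpl45, Mrpl46, Mrpl50, Mrps11 and Mrps22. GCCATNTT matches lay mostly after the start (16 of 24), whereas 10 of 12 CATTCC matches lay before it. The median density difference was −0.96 for genes with CATTCC and −0.49 for the others, −0.71 and −0.47 for GCCATNTT, −0.49 and −0.56 for CCGGAAG, −0.49 and −0.54 for CACGTG, and −0.58 and −0.54 for the NRF1 motif. These medians rest on 8 genes with CATTCC, 21 with GCCATNTT, 25 with CCGGAAG, 5 with CACGTG and 3 with the NRF1 motif. Mrpl46 and Mrps11, both with CATTCC, start 42 bases apart, so their windows overlap. The differences between the medians were not tested. A match is a run of letters and not a measured site.

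By promoter entry, several of these genes start back to back with another gene, within 1000 bases and on the opposite strand. This held for 25 of them. Of the 23 that were lower at confluency, 13 had a partner that was lower, 6 a partner that was higher and 4 a partner that was not called, against 22.8% lower and 26.1% higher over all genes and 35.5% and 41.5% among genes above the median level. Mrpl46 and Mrps11 are each other's partner and count once each. Mrpl46 and Mrps11 start 42 bases apart and were both lower, with differences of −1.29 and −1.03. Mrpl18 lies opposite Tcp1, a subunit of the cytosolic chaperonin, which differed by −0.86. Mrps7 lies opposite Gga3, an adaptor of the trans-Golgi network, which was higher by 0.26. Mrpl49 lies opposite Fau, which encodes a cytosolic ribosomal protein fused to a ubiquitin-like protein and differed by 0.004.

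The next comparison asked what the repressor fusion did in sparse cells, with both groups at 30% confluency. Compared with sparse control cells, 43 of the 76 genes were lower in Tead2-EnR cells and 9 were higher, with a median of −0.22 (limma, adjusted p below 0.05). Over all genes 18.1% were lower and 20.3% higher, with a median of −0.01, and among genes above the median level 29.2% were lower and 32.7% higher. The share of lower genes was 56.6%. The falls were smaller than those with confluency: Mrpl12 differed by −0.84 (limma's adjusted p = 2.6e-06), Mrpl19 by −0.80, Mrpl1 by −0.77, Mrps22 by −0.68, Mrpl37 by −0.59 and Mrps7 by −0.58. This comparison and the one of density in control cells share the sparse control arrays. The transferrin receptor controls differed between 3′ and 5′ by 1.12 ± 0.025 in Tead2-EnR cells and those of actin by 0.15 ± 0.020, both between the 2 control states, and their part in the result was not tested.

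Mrpl1 in Tead2-EnR cells lay closer to its confluent level. It read 8.40 and 8.38 in sparse control cells, 7.72 and 7.51 in Tead2-EnR cells and 7.33 and 7.43 in confluent control cells, so that both other groups lay far below the sparse controls. Mrpl18 was the other way round, with 10.22 and 10.16 in Tead2-EnR cells, closer to its 10.51 in sparse than to its 9.37 and 9.31 in confluent control cells. In both genes the 3 groups did not overlap.

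Genes higher in Tead2-EnR cells were led by Mrps6, which rose by 1.31 (limma's adjusted p = 1.99e-07). Mrps28 read 9.33 and 9.44 in Tead2-EnR and 8.97 and 9.04 in sparse control cells, a rise of 0.38 (limma's adjusted p = 5.37e-04) with no overlap. With confluency its difference was −0.18, a call that ended without the second sparse array (limma's adjusted p = 0.143) or the first or second confluent array (0.113 and 0.0669). Mrpl58, a peptidyl-tRNA hydrolase that rescues stalled mitochondrial ribosomes, rose by 0.27 and had not been called with density. Mrpl23, which sits at the exit of the peptide tunnel, rose by 0.22, Mrpl10 by 0.21 and Mrps36 by 0.21. Mrps36 has since been assigned to the 2-oxoglutarate dehydrogenase complex rather than to the ribosome. Leaving out 1 array ended the calls of Mrpl58 (limma's adjusted p = 0.06 without the first sparse control and 0.059 without the second Tead2-EnR array), Mrps36 (0.0889 and 0.106, same arrays), Mrpl10 (0.0675 without the second sparse control, 0.0636 without the second Tead2-EnR array) and Mrpl23 (0.123 without the first sparse control, 0.0597 and 0.0738 without the first and the second Tead2-EnR array). By symbol, 26 of 47 Mrpl genes were lower and 4 higher, against 17 of 29 Mrps genes lower and 5 higher.

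Yap cells at high density were compared with both control states, since neither matched their density. Against confluent control cells 28 of the 76 genes were higher and 2 lower, with a median of 0.13, where 11.7% of all genes were higher and 14.5% lower. Among genes above the median level 20.5% were higher and 23.7% lower. Against sparse control cells 55 were lower and 3 higher, with a median of −0.43, where 20.2% of all genes were lower and 22.2% higher (limma, adjusted p below 0.05 throughout). The 63 genes lowered by confluency in control cells were picked by the same control arrays, which favours a place between the 2 states. By group means, Yap cells lay between the 2 control states for 54 of the 63. By calls this is less clear, since 46 of the 76 genes were not called against confluent control. The count against confluent control was 30 in either direction and 18 without the second Yap array.

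Mrps12, a protein of the decoding centre, had the largest rise over confluent control cells. It read 9.39 and 9.32 in Yap cells, 8.76 and 8.83 in confluent and 9.31 and 9.38 in sparse control cells. The difference from confluent control was 0.56 (limma's adjusted p = 1.93e-04), and the Yap arrays overlapped with the sparse controls. Mrpl48 read 9.53 and 9.54 in Yap cells, 9.07 and 9.08 in confluent and 9.68 and 9.70 in sparse control cells, a rise of 0.46 over confluent control (limma's adjusted p = 1.83e-04) with no overlap between the groups. Mrps18b rose by 0.53, Mrpl46 by 0.48, Mrpl12 by 0.47 and Mrpl21 by 0.36. Mrpl12 at 10.29 and 10.37 was still far below its sparse level, with a difference of −1.12. The genes below confluent control were Mrps6, at −1.52 (limma's adjusted p = 2.36e-07), and Mrpl10, at −0.17 (limma's adjusted p = 0.0422). Against sparse control Mrpl23 was higher by 0.37, Mrpl24 by 0.20 and Mrps6 by 0.17, while Mrpl19 differed by −1.08, Mrpl18 by −1.02, Mrps22 by −0.97, Mrpl1 by −0.94 and Mrps7 by −0.91. The calls of Mrpl10 ended without any 1 of the 4 arrays (limma's adjusted p from 0.0589 to 0.224), and those over sparse control of Mrpl24 (0.0532 to 0.0654) and Mrps6 (0.0936 to 0.208) without either Yap array and without the first and the second sparse array, respectively. On the second Mrps6 probe set, 1424440_at, Yap and sparse control cells differed by −0.002 (limma's adjusted p = 0.984).

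The activator fusion at high density gave a like picture. Against confluent control cells 39 of the 76 genes were higher and 1 lower, with a median of 0.18, where 13.2% of all genes were higher and 13.7% lower. Among genes above the median level 23.1% were higher and 22.3% lower. Against sparse control cells 51 were lower and 8 higher, with a median of −0.34 (limma, adjusted p below 0.05), where 19.5% of all genes were lower and 23.4% higher. The count of 40 against confluent control was 22 without the first high-density Tead2-VP16 array, 23 without the first confluent control array and 25 in a fit of these 4 arrays alone. The comparisons of Yap and of Tead2-VP16 cells share the same control arrays.

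Mrps18b led the rises over confluent control, with 10.22 and 10.12 in Tead2-VP16 cells at high density and 9.48 and 9.55 in confluent control cells. The difference was 0.65 (limma's adjusted p = 6.79e-05), and the sparse controls, at 10.42 and 10.39, stood higher still. Mrps12 rose by 0.56, Mrpl48 by 0.54, Mrpl12 by 0.50, Mrpl46 by 0.47 and Mrpl54 by 0.42. Mrps6 alone was lower, at −1.52 (limma's adjusted p = 2.93e-07). Against sparse control the largest differences were −1.09 for Mrpl12, −1.06 for Mrpl18, −1.0 for Mrpl19, −0.88 for Mrps22, −0.87 for Mrps7 and −0.86 for Mrpl1. The rises there were 0.36 for Mrpl23, 0.25 for Mrpl58, 0.24 for Mrps36, Mrpl24 and Mrps28, 0.22 for Mrpl55, 0.20 for Mrpl10 and 0.18 for Mrps6. Of these, Mrpl23 and Mrpl24 kept their calls without any 1 array, and the others lost them without at least 1 (limma's adjusted p from 0.0508 to 0.173). On the second Mrps6 probe set the difference was 0.003 (limma's adjusted p = 0.976). Mrpl23 read 9.64 and 9.58 in these cells and 9.61 and 9.60 in Yap cells, above the sparse controls at 9.16 and 9.33 and the confluent controls at 9.36 and 9.35. Its calls over confluent control ended without any 1 of the 4 arrays in Yap cells (limma's adjusted p from 0.055 to 0.0668), and without the first high-density Tead2-VP16 array or either confluent control array in Tead2-VP16 cells (0.054 to 0.0822).

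Yap and Tead2-VP16 cells at high density could be compared directly. None of the 76 genes was called (limma), and 4 had an unadjusted p below 0.05. Over all genes 0.934% were higher and 1.08% lower in Yap cells. The differences ran from −0.15 to 0.12 with a median of −0.05, against −0.02 over all genes, and 61 of the 76 were below 0, as were 10278 of all 18193 genes and 5350 of the 9096 above the median level. The extremes were Mrps18a at −0.15 (limma's adjusted p = 0.342) and Mrpl55 at −0.15 (limma's adjusted p = 0.326). Mrps18a read 9.47 and 9.50 in Yap cells and 9.68 and 9.59 in Tead2-VP16 cells, without overlap.

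At complete confluency Tead2-VP16 and control cells could be compared at a matched density. Of the 76 genes, 4 were higher in Tead2-VP16 cells and 1 was lower, with a median of 0.03, against 5.06% higher and 4.92% lower over all genes and a median of −0.01 (limma, adjusted p below 0.05). These shares, 5.26% and 1.32%, are near or below the background. Mrps6 read 11.84 and 11.87 against 12.66 and 12.72 in control, a difference of −0.83 (limma's adjusted p = 3.61e-05). Mrpl1 read 7.67 and 7.88 against 7.33 and 7.43, a difference of 0.40 (limma's adjusted p = 0.0186). Neither gene had overlapping groups. The other calls were Mrps10 at 0.27, Mrps18b at 0.24 and Mrpl24 at 0.20. The count of 5 was 1 without either confluent control array or the second Tead2-VP16 array, and 3 without the first Tead2-VP16 array, and Mrps6 was called each time.

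Within Tead2-VP16 cells 32 of the 76 genes were lower and 2 higher at complete confluency than at high density, with a median of −0.16 (limma, adjusted p below 0.05), where 12.4% of all genes were lower and 12.1% higher. The transferrin receptor controls differed between 3′ and 5′ by 1.23 ± 0.001 at high density and 1.5 ± 0.057 at complete confluency, whose part in the result was not tested. The steepest fall was in Mrps12, from 9.34 and 9.36 to 8.71 and 8.83, a difference of −0.58 (limma's adjusted p = 2.19e-04) with no overlap. Mrpl46 differed by −0.50, Mrpl54 by −0.44, Mrpl48 by −0.41, Mrps18b by −0.41 and Mrpl20 by −0.39. The rises were Mrps6, at 0.69 (limma's adjusted p = 5.34e-05), and Mrps9, at 0.31 (limma's adjusted p = 0.0249). Mrps9 was not called without the first high-density (limma's adjusted p = 0.18) or the second confluent array (0.161). The count of 34 was 15 without the first and 22 without the second high-density array, 21 and 22 without the first and the second confluent array, and 17 in a fit of these 4 arrays alone.

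The 2 density steps differed in size. The step in Tead2-VP16 cells minus the step in control cells was above 0 for 48 of the 76 genes, below 0 for 3 and not called for 25 (limma's interaction term, adjusted p below 0.05), where 16.8% of all genes were called above and 20.8% below 0. For Mrpl12 the step was −1.59 in control and −0.37 in Tead2-VP16 cells, a difference of 1.21 (limma's adjusted p = 2.24e-06). For Mrps6, at −1.01, Mrpl10, at −0.27, and Mrps36, at −0.24, the step in Tead2-VP16 cells was the lower one. The starting densities differed, at 30% confluency in control and slightly above normal confluency in Tead2-VP16 cells, so the vector and the length of the step cannot be told apart.

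Across all groups the median of the 76 genes took an order that not every gene followed. The median deviation of the 76 genes from their own 12-array means was 0.38 and 0.32 on the sparse control arrays, 0.09 and 0.12 on the Tead2-EnR arrays, −0.01 and −0.03 on the high-density Tead2-VP16 arrays and −0.07 and −0.04 on the Yap arrays. It was −0.18 and −0.16 on the confluent Tead2-VP16 arrays and −0.20 and −0.18 on the confluent control arrays, so that these 2 groups differ by little, while the sparse controls stand apart. For the mean of the 76 genes, a different measure from these medians, the pooled SD between arrays of a group was 0.0156. Over all genes the same medians stayed between −0.01 and 0.03. By group mean 55 of the 76 genes were highest in sparse control cells, 11 in Tead2-EnR cells and the others elsewhere. The lowest group was confluent control for 38 and confluent Tead2-VP16 for 26. Between a gene's highest and lowest group the median range was 0.58, with 10 genes over 1 and 7 under 0.25.

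**Figure D3:**
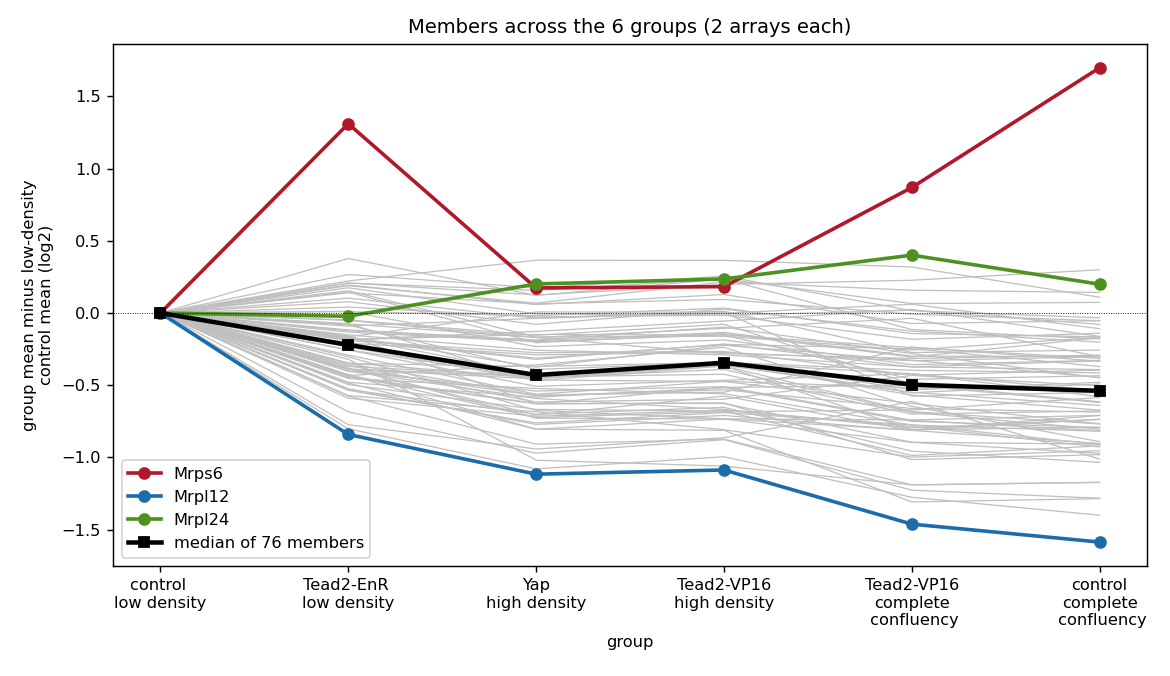
Each line is a gene, plotted as its group mean minus its mean in sparse control cells (log2) across the 6 groups, with the median of the 76 genes in black and Mrps6, Mrpl12 and Mrpl24 in colour. The median falls to −0.22 in Tead2-EnR, −0.43 in Yap, −0.34 in high-density Tead2-VP16 and −0.54 in confluent control cells, while Mrps6 reaches 1.31 in Tead2-EnR and 1.70 in confluent control cells.

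Of the 63 genes lowered by confluency in control cells, Tead2-EnR cells lay between the sparse and the confluent level for 55, at a median of 51.7% of the way up from the confluent level. Yap cells did so for 54, at 26.5%, and high-density Tead2-VP16 cells for 54, at 31.6%. Confluent Tead2-VP16 cells did so for 37, at 4.4%, and were below the confluent control for the other 26. Single genes ran from −5.2% to 310.1% in Tead2-EnR, −70.5% to 167.9% in Yap and −64.3% to 230.9% in high-density Tead2-VP16 cells. In confluent Tead2-VP16 cells they ran from −78.2% to 87.8%. The 63 genes were picked by the same control arrays that set the 2 levels, which favours a place between them. No share over other genes was taken, so the positions are given only as a description.

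The genes varied together to unequal degrees. The correlation of a gene with the mean of the others over the 12 arrays had a median of 0.925, a description in which the 12 points come from 6 groups. It was over 0.9 for 42 genes and below 0 for 6. Mrps7 (0.989), Mrpl22 (0.985) and Mrpl12 (0.985) were closest to the rest, and Mrpl24 (−0.798), Mrpl10 (−0.796) and Mrps6 (−0.531) farthest from it. The Mrps18 paralogues had 0.93 (Mrps18a), 0.839 (Mrps18b) and 0.957 (Mrps18c).

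Calls were also set side by side in comparisons without a common array. Of the 63 genes lowered by density in control and the 32 lowered by density in Tead2-VP16 cells, 30 were shared. That is 47.6% of the first list, where 42.1% of all 76 genes are in the second. It is 93.8% of the second list, where 82.9% of all 76 genes are in the first. Both shares are not far above those of the 76 genes. Of the 43 genes lower in Tead2-EnR cells, 18 were among the 28 higher in Yap cells than in confluent control (41.9% and 64.3%) and 24 among the 39 higher in high-density Tead2-VP16 cells (55.8% and 61.5%). Of all 76 genes 56.6% were lower in Tead2-EnR cells and 36.8% and 51.3% higher in the other 2 comparisons, so these shares are near those of the 76 genes. Of the 9 genes higher in Tead2-EnR cells, 4 (44.4%, near the 42.1% of the 76) were lower with density in Tead2-VP16 cells, namely Mrpl58, Mrps14, Mrps21 and Mrps28. Mrps28 kept both calls without any 1 array. The density call was lost by Mrpl58 without the first high-density or either confluent Tead2-VP16 array (limma's adjusted p from 0.0754 to 0.181) and by Mrps14 (0.0851 to 0.117) and Mrps21 (0.0609 to 0.0683) without any 1 of the 4. The Tead2-EnR calls of Mrps14 and Mrps21 were lost without the second sparse control (limma's adjusted p = 0.0848 and 0.0793) or the second Tead2-EnR array (0.0891 and 0.0585), and that of Mrpl58 without the first sparse control (0.06) or the second Tead2-EnR array (0.059). Over the 76 genes, which are not independent replicates, the 2 density steps correlated at 0.589, and at 0.43 without Mrps6. The difference of Tead2-EnR cells correlated at −0.572 with that of Yap cells over confluent control and at −0.544 with that of high-density Tead2-VP16 cells, and without Mrps6 at −0.275 and −0.224. Mrps6 thus carries a large part of both negative values.

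**Figure D4:**
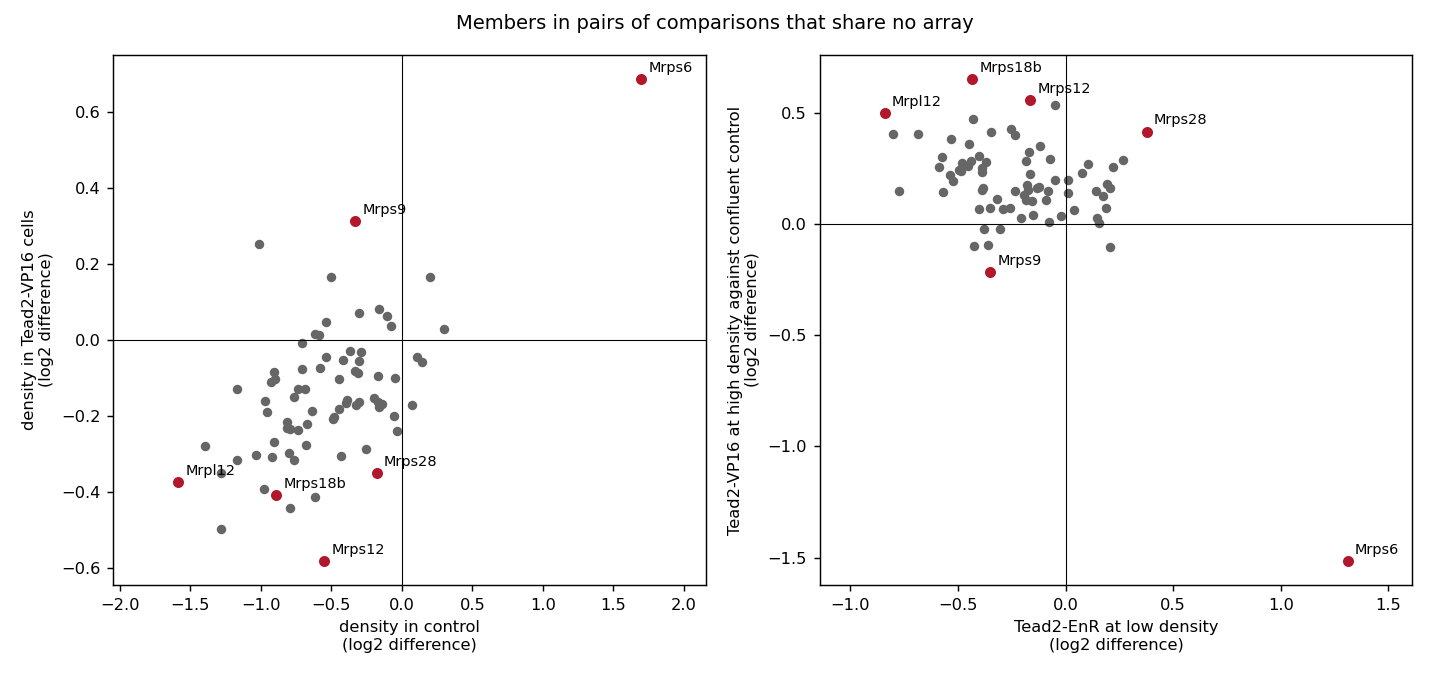
Each point is a gene, plotted by its log2 differences in 2 comparisons with no array in common: the density steps of control and of Tead2-VP16 cells on the left, and Tead2-EnR against high-density Tead2-VP16 over confluent control on the right. Mrps6 lies far from the other 75 genes in both panels, and without it the correlations are 0.43 instead of 0.589 and −0.224 instead of −0.544.

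Other genes of the same pathway were followed as lists, against the same shares for density as before, 22.8% lower and 26.1% higher over all genes and 35.5% and 41.5% among genes above the median level. Mitochondrial ribosomal proteins under other symbols fell with density in 4 of 4 measured cases: Gadd45gip1 by 1.19, Ptcd3 by 1.15, Chchd1 by 0.64 and Dap3 by 0.44. In Tead2-EnR cells 3 of the 4 were lower, as were 18.1% of all genes and 29.2% of genes above the median level. Among 13 mitochondrial translation factors 8 were lower and 3 higher with density, with the elongation factor Gfm1 at −1.10, the exchange factor Tsfm at −0.76 and the messenger RNA stabiliser Lrpprc at −0.72. Among 22 factors of ribosome assembly and ribosomal RNA modification 10 were lower and 2 higher, with Noa1 at −1.16, Mterf4 at −0.95 and the methyltransferase Mrm3 at −0.84. Of 16 mitochondrial aminoacyl-tRNA synthetases 7 were lower and 3 higher, with Yars2 at −1.75 and Mars2 at −1.18. The median of the 4 renamed ribosomal proteins, −0.90, lay below that of the 76 genes, whereas the medians of the other 3 lists were −0.29, −0.18 and −0.15.

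Most genes for upstream factors and for mitochondrial content were lower with density, and these messages do not measure the amount of mitochondria. Of 11 genes for mitochondrial transcription and DNA maintenance 8 were lower and 1 higher with density, with a median of −0.31. Pnpt1 differed by −0.92, the DNA polymerase Polg by −0.58 and the packaging factor Tfam by −0.47. In Tead2-EnR cells 8 of the 11 were lower and 1 higher. Of 16 proteins of mitochondrial content 15 (93.8%) were lower and none was higher (limma), with a median of −0.48. The 76 genes had 82.9% lower and a median of −0.54. The import channel Tomm40 differed by −1.34, the adenine nucleotide carrier Slc25a5 by −1.28 and the chaperonin Hspd1 by −1.14. In Tead2-EnR cells 9 of the 16 (56.2%) were lower and none was higher, against 56.6% lower among the 76 genes. The share lower there was 18.1% over all genes and 29.2% among genes above the median level. Of 11 regulators 6 were lower and 1 higher. The growth regulator Myc fell by 1.06 and Nrf1, an activator of nuclear genes for mitochondria, by 1.07, while Mycn, a relative of Myc, rose by 5.88. Tead2-EnR cells showed Myc at −1.08, Pprc1 at −0.73, Nrf1 at −0.67 and Mycn at 5.18.

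The respiratory chain and ATP synthase, which the mitochondrial ribosome helps to build, gave a share of falls with density near that of genes above the median level. Of 81 genes 29 (35.8%) were lower and 17 (21%) higher, with a median of −0.09, where 35.5% and 41.5% of genes above the median level were. Over all genes 22.8% were lower and 26.1% higher. The 81 genes were chosen by symbol and not limited to those above the median level. In Tead2-EnR cells, where 43 of the 76 ribosomal genes were lower, 34 of the 81 (42.0%) were higher and 4 (4.94%) lower, with a median of 0.10, against 32.7% and 29.2% of genes above the median level. Ndufv3, Ndufa6 and Ndufa7, subunits of complex I, rose there by 1.04, 0.73 and 0.59. Yap cells had 13 of them (16%) above the confluent control level and high-density Tead2-VP16 cells 17 (21%), near or below the 20.5% and 23.1% of genes above the median level.

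The ribosome of the cytosol was followed as well. Of 43 cytosolic ribosomal protein genes 10 (23.3%) were lower and 3 (6.98%) higher with density, with a median of −0.02. The share of lower genes is near the 22.8% of all genes and below the 35.5% of genes above the median level. Rps25 differed by −1.39 and Rpl12 by −0.56. Their median level, 13.95, is close to 14.55, the highest mean of any gene. All 25 nucleolar genes for ribosome biogenesis were lower with density, with a median of −1.56, and 24 of 25 were lower in Tead2-EnR cells, with a median of −0.97. The share lower in Tead2-EnR cells was 18.1% over all genes and 29.2% among genes above the median level. Of these 25, 22 were higher than in confluent control both in Yap cells (median 0.55) and in high-density Tead2-VP16 cells (0.59). Over all genes 11.7% and 13.2% were higher in these comparisons, and 20.5% and 23.1% of genes above the median level.

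**Figure D5:**
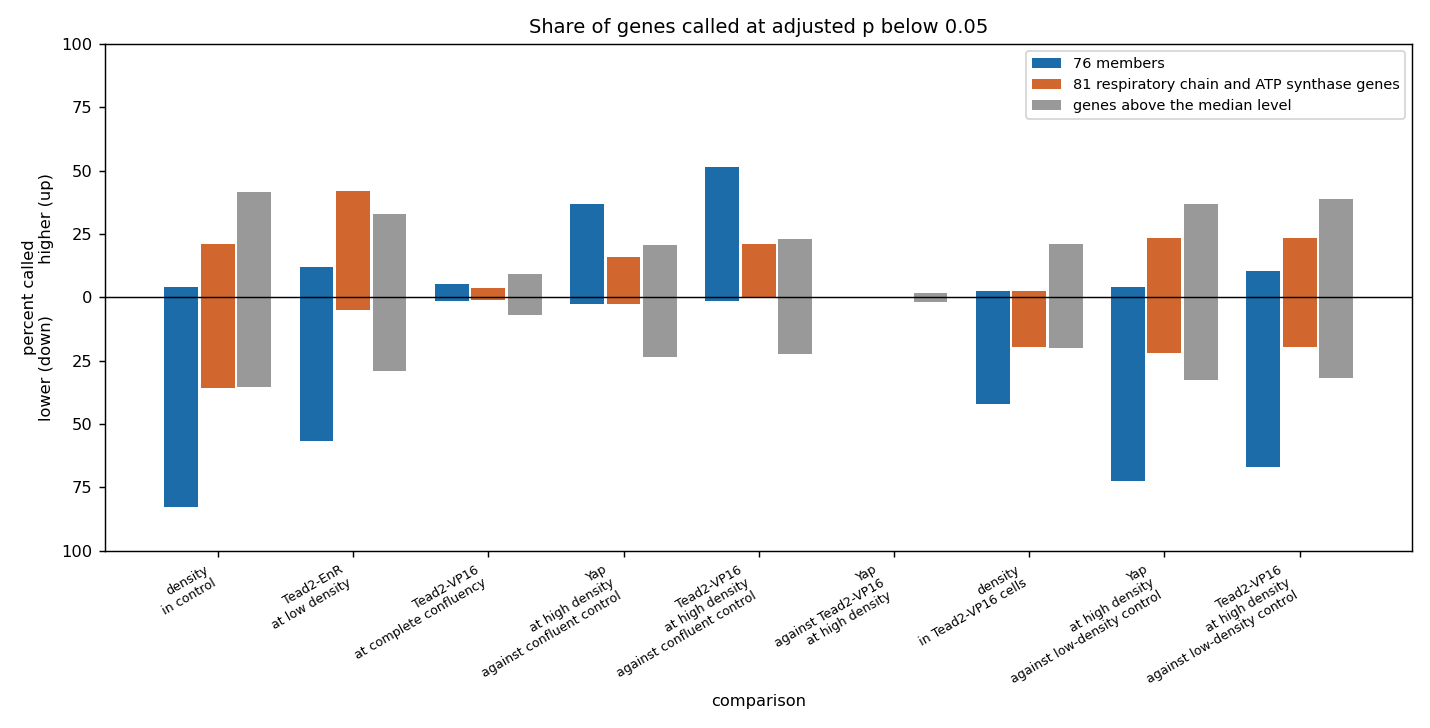
Bars give the percentage called higher (up) and lower (down) in each comparison for the 76 mitochondrial ribosomal genes, the 81 respiratory chain and ATP synthase genes and all genes above the median level. With density in control cells 82.9% of the ribosomal genes were lower against 35.5% of genes above the median level, and in Tead2-EnR cells 56.6% against 29.2%.

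Among the 76 genes, 42 had more than 1 probe set, 156 probe sets in all over the 76, and Mrpl15 had the most with 8. With density in control every probe set was called in the same direction for 13 of the 42, and for 6 in Tead2-EnR cells. Mrpl57 alone had probe sets called both ways: 1418137_at fell by 0.20 (limma's adjusted p = 0.0202 among single-symbol probe sets) while 1460225_at rose by 0.58 (limma's adjusted p = 0.00198). The mean level of the first was 10.30 and that of the second 5.70, below the median gene at 6.87. Probe sets whose IDs end in _s_at or _x_at, which can match more than a single transcript, stood for Mrpl15, Mrpl37, Mrpl38, Mrps12, Mrps24 and Mrps6.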

How the data were processed

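Per the submitters' processing notes, the authors made the deposited values with RMA, whose version is not given in the sources used here. The deposited table holds linear intensity values, of which log2 was taken with no further normalization. The array annotation pairs 34945 of 45101 probe sets with 1 symbol, 932 with several and 9160 with none. One probe set per gene, with the highest mean log2, left 18193 genes. All 76 Mrpl and Mrps genes matched RefSeq by Entrez ID, and no symbol changed. A model with 1 mean per group was fitted to all 12 arrays with limma 3.58.1 in R 4.3.3 (lmFit, eBayes; degrees of freedom 6 residual and 3.45 prior). Each test was two-sided, with Benjamini-Hochberg adjustment over all genes, and a gene was called at adjusted p below 0.05. The same fit on single-symbol probe sets gave values of second probe sets. The code was tested on simulated data. The number of arrays, 2 per group, limits the precision. The genes, lists and tests were chosen with earlier results of these data known. Genes named are, in each comparison, up to 6 called members with the largest rise and up to 6 with the largest fall, those with probe sets called both ways, the 3 highest and 3 lowest in correlation with the rest, Mrpl12, the Mrps18 paralogues (a gene that several parts of the rule name counts under each) and up to 3 called genes of each other list with the smallest adjusted p. Divergent neighbours and Slc5a3 were added after their values were seen. Alternatives were a filter at the median level, averaged probe sets per gene, an offset of 16, repeated quantile normalization, centring, a variance trend with robust prior, a replicate block, a fit of only the arrays compared, and leaving out each array.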

Additional observations from a re-analysis of the deposited data

Results flagged for a closer look

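Mrps9, a small-subunit protein with a bacterial counterpart, had differences of opposite sign in the 2 density steps. Its values were 8.68 and 8.61 in sparse and 8.34 and 8.28 in confluent control cells, a difference of −0.33 (limma's adjusted p = 0.00835). In Tead2-VP16 cells they were 7.99 and 8.21 at high density and 8.31 and 8.51 at complete confluency, a difference of 0.31 (limma's adjusted p = 0.0249). The difference between the steps was 0.646 (SE 0.121, limma's interaction term, adjusted p = 0.0019). The groups of neither step overlap. Of the 4 probe sets of Mrps9 only 1 was called in Tead2-VP16 cells, and with the mean of all 4 the step was 0.09 (limma's adjusted p = 0.262). Leaving out the first high-density or the second confluent Tead2-VP16 array gave 0.20 and 0.21, which were not called, and a fit of only the 4 Tead2-VP16 arrays did not call the step (limma's adjusted p = 0.0922). The control step was not called without the second confluent control array (limma's adjusted p = 0.053).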

How the results depend on the processing

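The counts of genes called for density in control, for Tead2-EnR cells and for both high-density groups against sparse control stayed within 1.5 times under every alternative. Leaving out 1 array at a time gave 60 to 63 calls for density in control, 40 to 43 for Tead2-EnR, 49 to 53 for Yap and 51 to 55 for Tead2-VP16 at high density against sparse control. It gave 18 to 23 for Yap and 22 to 31 for Tead2-VP16 at high density against confluent control, 15 to 22 for density in Tead2-VP16 cells, 1 to 3 for confluent Tead2-VP16 and 0 for Yap against Tead2-VP16. The medians then ran from −0.558 to −0.506 for density, −0.251 to −0.187 for Tead2-EnR, 0.009 to 0.056 for confluent Tead2-VP16, 0.113 to 0.143 and 0.167 to 0.204 for Yap and high-density Tead2-VP16 against confluent control, −0.442 to −0.411 and −0.358 to −0.326 against sparse control, −0.064 to −0.038 between them, and −0.178 to −0.148 for density in Tead2-VP16 cells.

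The 5 calls of confluent Tead2-VP16 became 12 with the filter at the median level, 3 with probe sets averaged per gene, 3 with repeated quantile normalization, 10 with centred arrays, 11 with a variance trend and robust prior and 1 with only the compared arrays. With only the compared arrays the 40 calls of high-density Tead2-VP16 against confluent control became 25 and the 34 of density in Tead2-VP16 cells became 17; fewer arrays estimate the spread there. Same-numbered arrays of different groups had deviations that correlated between −0.061 and 0.101, so little was seen that they share. A pairing with a small effect could give such values too, and the labels do not say whether the numbers pair the samples. With the replicate number as a block 672 of 684 gene values kept their call, 12 lost it, and confluent Tead2-VP16 had 3 calls.

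With probe sets averaged per gene the median was −0.441 for density, −0.019 for Yap against Tead2-VP16, −0.131 for density in Tead2-VP16 cells, and −0.307 and −0.282 for Yap and high-density Tead2-VP16 against sparse control. With repeated quantile normalization it was −0.468 for density, −0.185 for Tead2-EnR, and −0.352 and −0.287 against sparse control. With arrays centred on their medians it was −0.579 for density, 0.076 for confluent Tead2-VP16, 0.207 for high-density Tead2-VP16 against confluent control, −0.075 for Yap against Tead2-VP16 and −0.469 for Yap against sparse control. Estimates with a call in either setting changed sign only with probe sets averaged per gene: Mrpl57 (0.1904) and Mrps14 (0.0788) for density, Mrps21 (−0.0033) in Tead2-EnR cells, Mrps10 (−0.0081) in high-density Tead2-VP16 cells against confluent control and Mrps14 (0.2891) in Yap cells against sparse control. Mrpl57 was called with the new sign (limma's adjusted p = 0.0477). Mrps14 for density, Mrps21 and Mrps10 were then not called (limma's adjusted p = 0.227, 0.978 and 0.957). The cause of the sign changes was not tested.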
